A study of Rattus norvegicus with 102 samples.

Results

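The comparison described here set 12 old memory-impaired rats against 10 young rats in the hippocampal subfield CA3. Its 22 libraries were all those of these groups in CA3, of 102 in the series, which also holds the subfields CA1 and dentate gyrus (DG) and an old unimpaired group. All animals were male Fischer 344 rats. Young rats were 5 to 6 months old and aged rats 17 to 22 months old. The aged rats had been split by their water maze probe score, and those scoring below the lowest young rat were called aged-impaired (AI) and the others aged-unimpaired (AU, 12 rats in CA3). The labels name no transgene and no drug, and tissue was taken weeks after the maze. One hippocampus per rat was dissected into subfields by hand, CA2 was not isolated as a sample of its own, and poly-A RNA of the bulk tissue was sequenced, so that fewer cells of a type and less RNA per cell cannot be told apart.

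CA3 pyramidal neurons receive mossy fiber input from the dentate gyrus, excite one another through recurrent collaterals, and project to CA1. The region is known for its part in storing and completing memory patterns. Microglia, the resident phagocytes of brain tissue, carry complement and Fc receptors and can load peptide onto MHC class II molecules. In the aging brain, complement, class II and astrocyte filament genes are among those most often found at higher levels.

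The class II chain genes had log2 differences between AI and young rats of 1.72 to 2.05, and their promoters are shown because these genes lay together. RT1-Ba and RT1-Bb encode the alpha and beta chains of one class II molecule, and RT1-Da and RT1-Db1 those of another. In 5 genes looked up in the RefSeq promoter sequences (build GRCr8), 4 held the letters CTGATTGG, the core of the Y box of class II promoters, within 250 bases before the gene start. Both strands were searched, and 3.19% of all 33469 promoters held it. Cd74 had no match in this window. The 120 bases before each start are given 5′ to 3′ on the strand of the gene, with the match in capitals.
RT1-Ba (chr20:4576937-4577056, + strand): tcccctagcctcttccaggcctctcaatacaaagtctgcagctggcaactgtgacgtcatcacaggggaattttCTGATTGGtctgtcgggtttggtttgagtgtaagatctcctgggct
RT1-Bb (chr20:4604119-4604238, - strand): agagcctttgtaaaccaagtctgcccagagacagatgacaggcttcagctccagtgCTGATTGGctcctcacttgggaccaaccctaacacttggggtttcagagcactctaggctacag
RT1-Da (chr20:4515295-4515414, + strand): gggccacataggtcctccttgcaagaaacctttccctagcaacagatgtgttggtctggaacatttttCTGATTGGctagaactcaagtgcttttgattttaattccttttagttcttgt
RT1-Db1 (chr20:4560163-4560282, - strand): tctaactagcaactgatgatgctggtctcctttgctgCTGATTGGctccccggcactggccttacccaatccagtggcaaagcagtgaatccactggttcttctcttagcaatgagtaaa
The match began 46 bases before the start in RT1-Ba, 64 in RT1-Bb, 52 in RT1-Da and 83 in RT1-Db1.

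Depth was 5484504 to 14104325 recovered reads per library. The AI libraries of rats R1931 and R9781 held the fewest genes with a value above 0, at 15790 and 16226, against 16972 to 19716 in all other CA3 libraries. Their correlation with the median of the other CA3 libraries was 0.84 and 0.91, against 0.95 to 0.99 in the rest. The young library of rat R9876 held a sum of 26510 for the meningeal fibroblast markers, whereas the other young libraries held 410.1 to 1330 and the AI libraries 447.7 to 913.4.

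The rat identifiers fall into 2 series, R9 (5 young, 5 AI) and R1-R2 (5 young, 7 AI). With AU included they hold 11 and 13 aged rats. These sizes, and those of the young rats, equal the ones given for the testing sites, whose rats came from different suppliers. No label ties a rat to a site, so series, site and supplier cannot be told apart. The CA3 marker score, a mean of centred log2 values, exceeded the CA1 and DG scores in all 12 R1-R2 libraries but in only 2 of 10 R9 libraries. Of the other R9 libraries, CA1 markers scored highest in 4 young and 2 AI rats and DG markers in 2 AI rats. Results are therefore also given within each series, for the 14 libraries with CA3 highest, or without the libraries that stood apart.

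**Figure D1:**
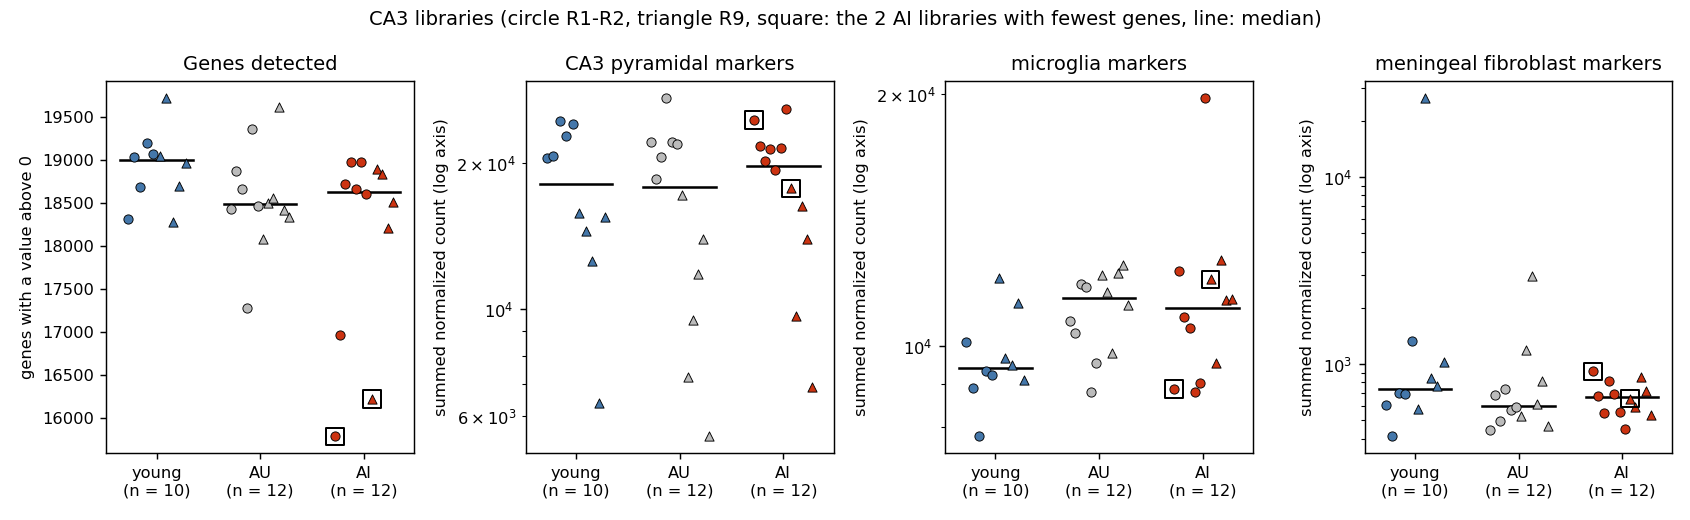
Each point is 1 CA3 library of a young, AU or AI rat, showing the number of genes with a value above 0 and, on log axes, the summed normalized counts of the CA3 pyramidal, microglia and meningeal fibroblast markers. The 2 squared AI libraries lie lowest in genes detected, and 1 young library lies at 26510 in the meningeal panel while the other young libraries lie at no more than 1330.

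The main question was which genes differ between the old impaired and the young animals in CA3. In limma, fitted to log2(normalized count + 1) of all 16450 genes with a mean of at least 5, no gene passed a Benjamini-Hochberg adjusted p of 0.05 (0 genes, 0%). At an unadjusted limma p under 0.05 there were 398 genes, of which 150 (0.912%) were higher in AI and 248 (1.51%) lower. Together they made up 2.42% of the genes tested, below the 1 in 20 that this cut-off gives when no gene differs. Counts of list members at this cut-off are to be read beside these shares. The median half-width of the 95% interval was 0.43 on the log2 scale, so differences well below that size could not be seen for a typical gene. edgeR's quasi-likelihood test on the recovered reads also called 0 genes (533 at an unadjusted p under 0.05). DESeq2 called 1 gene (527 at an unadjusted p under 0.05).

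The gene that DESeq2 called was AABR07006310.1, named only by its contig and of no function known here. Its normalized count was 483.1 to 707.4 in young rats with a median of 632.3. AI rats had 698.3 to 1094 with a median of 831.9. The AI libraries lay above every young library in 11 of 12 rats, and the groups overlapped by a single AI rat. The log2 difference was 0.48 ± 0.09 (SE), with an adjusted p of 0.435 in limma and 0.0061 in DESeq2. The AU rats, at 709.2 to 1057, all lay above the highest young rat. In CA1 its AI minus young log2 difference was 0.30 and in DG 0.38, and the difference between CA3 and either subfield did not pass the test (unadjusted limma p = 0.186 for CA1 and 0.508 for DG). The gene was chosen after its values were seen.

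**Figure D2:**
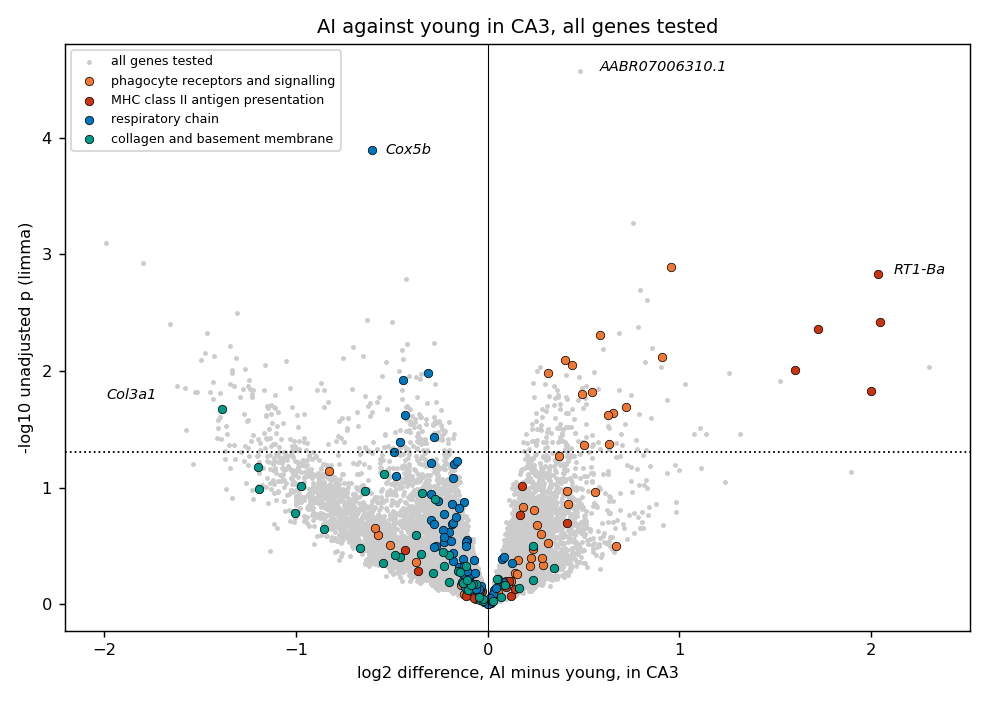
Each point is 1 gene tested, with its log2 difference between AI and young rats in CA3 on the x axis and −log10 of its unadjusted limma p on the y axis, and the dotted line at p = 0.05. Members of 4 gene lists are colored, and 5 class II genes lie together at log2 differences between 1.60 and 2.05 with no gene past the adjusted threshold.

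The MHC class II antigen presentation list had 18 members tested, 5 of them higher at an unadjusted p under 0.05 and 0 lower, where 0.912% of all genes were higher. Its median log2 difference was 0.13, against −0.03 over all genes. The 5 were the 4 chain genes and Cd74, the invariant chain that escorts class II molecules to the loading compartment.

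RT1-Ba ranged from 8.13 to 203.9 in young rats, with a median of 27.7, and from 46.5 to 2071 in AI rats, with a median of 116.7. No AI rat lay below the young range and 3 of 12 lay above it. The log2 difference was 2.04 ± 0.57 (SE, unadjusted limma p = 0.00148).
RT1-Bb had a young median of 35.9, between 6.97 and 218.3, and an AI median of 132.5, between 24.8 and 2665. The log2 difference came to 2.05 ± 0.64 (unadjusted limma p = 0.00382). RT1-Da had a young median of 42.8 (range 11.1 to 323.9) and an AI median of 121.7 (range 47.6 to 1655), a log2 difference of 1.72 ± 0.55. Both chain genes overlapped between the groups, with 5 of 12 AI rats above the young range for RT1-Bb and 3 for RT1-Da.
RT1-Db1 ran from 6.18 to 191.5 in young and from 2.36 to 2476 in AI rats, a log2 difference of 2.0 ± 0.76 (unadjusted limma p = 0.0148). Cd74 ran from 88.4 to 743.5 in young rats and from 117.9 to 9967 in AI rats, with medians of 174.5 and 566.6 and a log2 difference of 1.60 ± 0.57. In all 5 genes the highest AI value came from 1 rat, R2238, whose summed microglia markers were also the highest of the 22 at 19790, and these values stand beside those without it. Without rat R2238 the log2 difference of RT1-Ba was 1.69 and that of Cd74 was 1.24.

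The class II list had a median of 0.008 in R9 rats, with 9 of 17 values above 0, and 0.35 in R1-R2 rats, with 15 of 17. RT1-Da differed by 0.51 in R9 and 2.68 in R1-R2, and RT1-Db1 by 0.30 and 3.26. The difference between the series did not pass for any gene tested after adjustment (0 genes, 0%). For RT1-Da it had an unadjusted limma p of 0.0468 and for RT1-Db1 0.0433. These were the only 2 of 18 members below 0.05, where 1.49% of all genes were below it. RT1 genes have near-identical copies, so their reads may be split between rows and each single value is uncertain.

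Aged-unimpaired rats were set against the same young rats, so these differences share controls. RT1-Ba differed by 2.17 between AU and young rats in CA3, RT1-Db1 by 2.63 and Cd74 by 1.95. Set directly against each other, AI minus AU was −0.13 for RT1-Ba, with a 95% interval from −1.15 to 0.90, and −0.34 for Cd74, with an interval from −1.48 to 0.79. Both intervals spanned 0. In the DG, RT1-Ba was one of 2 genes that passed in AI against young (0.0123% of 16203 genes, adjusted limma p = 0.0301, log2 difference 2.34), the other being Cdh1. CA1 had 0 such genes (0%) and an RT1-Ba difference of 1.13. The CA3 minus DG difference of RT1-Ba was −0.30 (unadjusted limma p = 0.687), so passing in DG and not in CA3 was not shown to be a difference between the subfields.

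Complement marks synapses and debris for phagocytes. Of 25 complement gene rows tested, 4 were higher at an unadjusted p under 0.05 and 0 lower, where 0.912% of all genes were higher. The list's median log2 difference was 0.18. That median was 0.01 in R9 and 0.35 in R1-R2, 0.097 without R2238 and 0.31 without R9876. C3, the central component, ran from 571.8 to 1195 in young rats with a median of 765.3. AI rats had a median of 1183 and a range of 766.3 to 5447, and 5 of 12 lay above the young range. The log2 difference was 0.83 ± 0.25 (unadjusted limma p = 0.00246), 0.63 in R9 and 0.92 in R1-R2, and 0.65 without rat R2238. Its difference was 0.79 in CA1 and 0.95 in DG, and 0.71 for AU against young in CA3.

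C4a, which encodes the fourth component and appears in 2 rows of near-identical counts, gave log2 differences of 1.08 and 1.14. Since C4 copies share reads, the rows are not independent. In the first row young rats had 41.4 to 459 and AI rats 55.2 to 3530, and only rat R2238 lay above the young range. The value of 459 was that of young rat R9876, where the other young rats had at most 141.1. Itgb2, the beta chain of complement receptor 3, had medians of 158.4 and 202.7 and a log2 difference of 0.39 ± 0.17, which was 0.27 (unadjusted limma p = 0.0555) without rat R2238. The genes of the first component, C1qa, C1qb and C1qc, which are also microglia markers, differed by 0.32, 0.27 and 0.16, none below an unadjusted p of 0.05.

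By count, the list of phagocyte receptors and signalling had the most members at an unadjusted p under 0.05, though it was among the longest. Of 50 tested, 13 were higher and 0 lower, where 0.912% of all genes were higher. Values lay above 0 in 38 of 50. The median was 0.23 in all rats, 0.22 in R9 and 0.33 in R1-R2.

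Fcgr2b, the inhibitory Fc receptor, had medians of 94.6 in young and 137.5 in AI rats, with young values of 54.4 to 158.2 and AI values of 116.7 to 281.2. Its log2 difference was 0.59 ± 0.19. Ncf4, a subunit of the phagocyte NADPH oxidase, had medians of 15.0 and 26.9 and a log2 difference of 0.91 ± 0.31. Fcgr2b and Ncf4 each had 3 AI rats above the young range and none below it.

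Cx3cr1, the fractalkine receptor of microglia, ran from 350.6 to 516.8 in young and from 372.3 to 1007 in AI rats, and 6 of 12 AI rats were above all young rats. Its log2 difference was 0.40 ± 0.14, with 0.38 in both series. P2ry12, the purinergic receptor of surveying microglia, had medians of 194.8 and 255.9 and a log2 difference of 0.44 ± 0.16, also with 6 of 12 AI rats above the young range. Nckap1l and Ncf1, which serve actin remodelling and the oxidase, differed by 0.32 and 0.55.

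Most of these genes are microglial. The 15 microglia markers had 3 members higher at an unadjusted p under 0.05 and 0 lower, where 0.912% of all genes were higher. Their median log2 difference was 0.18, with 12 of 15 values above 0. Their summed level was 7792 to 12040 in young rats (median 9417) and 8804 to 19790 in AI rats (median 11090), and 3 of 12 AI rats lay above every young rat. The part of cell number in the phagocyte differences was not tested. Of 8 perivascular macrophage markers 6 could be tested, and all 6 had values below 0 with a median of −0.59, which was −0.23 without young rat R9876 and 0.14 with AI rats R1931 and R9781 also left out. Of 15 lymphocyte markers 1 passed the filter, their sums were 19.1 to 88.5 in young and 0 to 73.3 in AI rats, and Ms4a1 was at 0 in all 22 libraries.

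**Figure D3:**
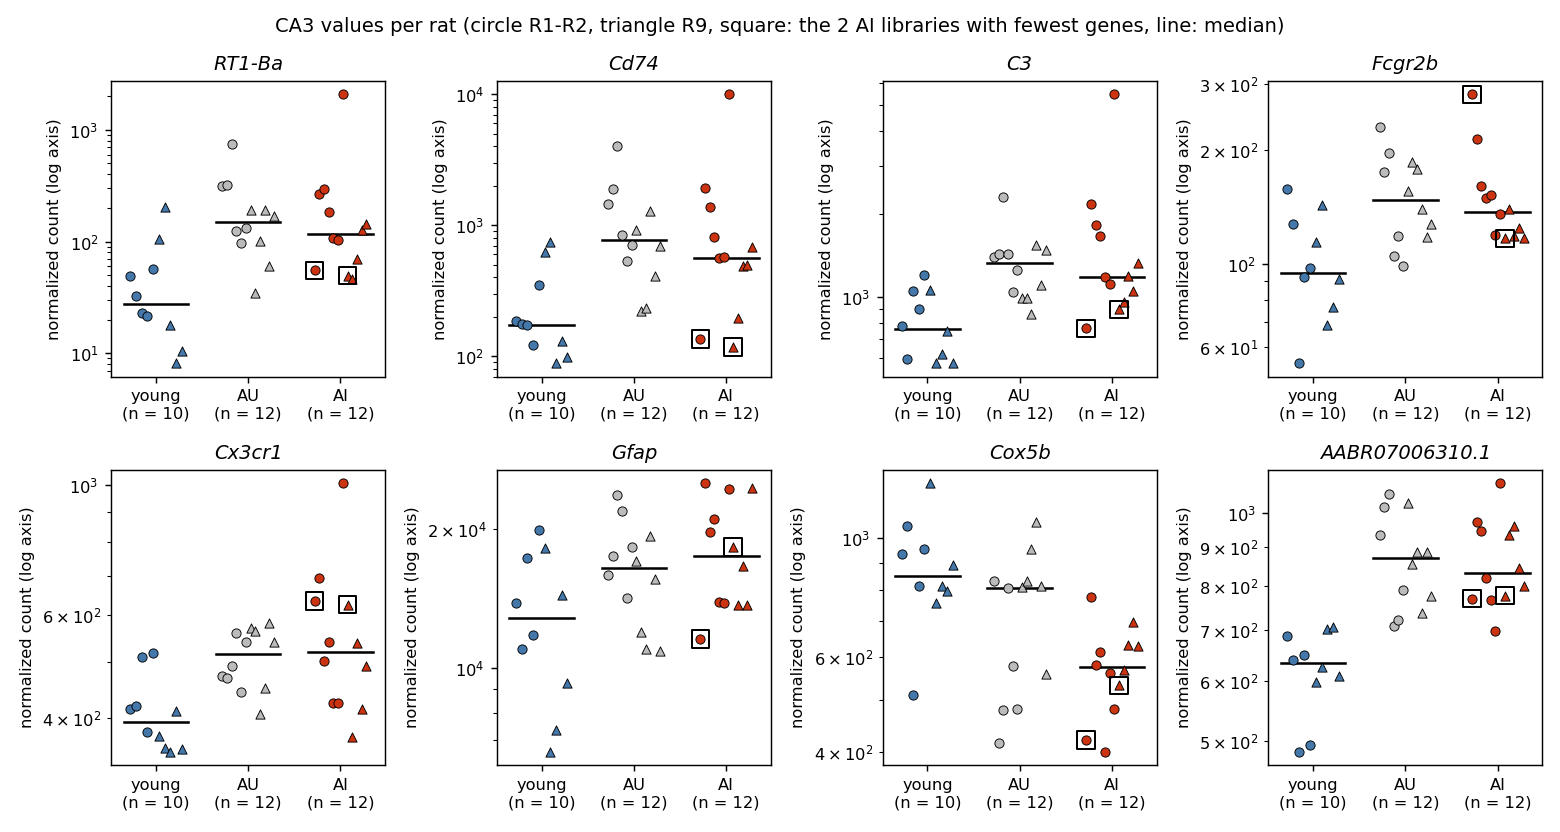
Each point is the normalized count of 1 rat in CA3 on a log axis, for 8 genes in young (n = 10), AU (n = 12) and AI (n = 12) rats, with circles for R1-R2, triangles for R9, squares around the 2 AI libraries with the fewest genes, and a line at the group median. AI and young overlap in every panel, by a single AI rat in AABR07006310.1, and the highest AI point of RT1-Ba, Cd74 and C3 is the same rat, R2238.

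Genes of disease-associated microglia had a median of −0.002 over 19 tested, 1 higher at an unadjusted p under 0.05 and 0 lower. Without R1931 and R9781 there were 4 higher, where 1.91% of all genes were, and the median was −0.0007. With R9876 also left out the median was 0.11. The 1 gene in the full comparison was Gpnmb, a lysosomal glycoprotein of lipid-laden phagocytes, with medians of 165.3 and 242.7 and a log2 difference of 0.54 ± 0.26. Trem2, the lipid receptor that directs this state, differed by 0.24 (unadjusted limma p = 0.157), and its adaptor Tyrobp by 0.42 (p = 0.139 in limma).

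Interferon response genes had 0 of 39 members at an unadjusted p under 0.05 in either direction and a median of −0.05, which was −0.49 in R9 and 0.09 in R1-R2. Irgm differed by 0.41 and Isg15 by −0.97, neither below p = 0.05. The MHC class I list also had 0 of 25 in either direction, with a median of 0.17. It had 4 of 25 higher (median 0.30) without R1931 and R9781, where 1.91% of all genes were higher. With R9876 also left out it had 11 of 25 higher (median 0.43), where 2.12% of all genes were higher. The median was 0.036 without R2238, −0.002 in R9 and 0.23 in R1-R2.

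The lysosome list had 0 of 49 higher and 2 lower, with a median of 0.03. Ctsk, a collagen-degrading cathepsin, ran from 72.8 to 495 in young rats and from 69.8 to 185.1 in AI rats, with a log2 difference of −0.75 ± 0.26. It was −0.57 without young rat R9876. Gusb, the lysosomal beta-glucuronidase, had medians of 102.7 and 80.6 and a log2 difference of −0.42 ± 0.17, with 5 of 12 AI rats below every young rat.

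Reactive astrocyte genes had 3 of 26 higher at an unadjusted p under 0.05 and 0 lower, where 0.912% of all genes were higher. Their median was −0.02. Gfap, the astrocyte intermediate filament, ran from 6589 to 19940 in young rats with a median of 12850, and from 11570 to 25190 in AI rats with a median of 17500. The log2 difference was 0.51 ± 0.19 (unadjusted limma p = 0.0133), 0.71 in R9 and 0.30 in R1-R2, and 4 of 12 AI rats exceeded the young range. Ggta1, a galactosyltransferase, differed by 0.44 ± 0.18 and Slc14a1, a urea transporter, by 0.20 ± 0.09. The 13 general astrocyte markers had a median of 0.03 and 0 members at an unadjusted p under 0.05.

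The protocadherins and cadherins, which give neurons adhesive identities at synapses, had 33 of 39 values above 0 and a median of 0.17, against 42.1% of values above 0 over all genes. Only 2 were higher at an unadjusted p under 0.05 and 0 lower. Pcdhb21 ran from 15.1 to 30.8 in young and from 22.6 to 75.1 in AI rats, and 6 of 12 AI rats exceeded all young rats. Its log2 difference was 0.79 ± 0.23 (unadjusted limma p = 0.002), and it was −0.24 in CA1 and −0.15 in DG. Pcdhb4 differed by 0.39 ± 0.17. Genes of the Pcdhb cluster are close copies of one another, so reads may be shared.

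Collagen and basement membrane genes lay on the other side, with 8 of 43 values above 0 and a median of −0.16. A single member, Col3a1 of fibrillar collagen, was lower at an unadjusted p under 0.05. It ran from 13.9 to 2899 in young and from 12.9 to 49.6 in AI rats, with a log2 difference of −1.39 ± 0.56. The highest young value was that of rat R9876, and without it the difference was −0.78. All 11 meningeal fibroblast markers tested were below 0 with a median of −1.0, which became −0.39 without rat R9876 and −0.10 with AI rats R1931 and R9781 also left out. The collagen list's median with all 3 left out was −0.001.

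Choroid plexus, endothelial and ependymal markers also had medians below 0. All 9 choroid plexus markers tested lay below 0 (median −0.64), with sums of 46.6 to 15000 in young and 58.2 to 2884 in AI rats. The sum of 15000 was that of young rat R2221, where the other young rats had at most 2197. With that rat kept and R1931, R9781 and R9876 left out, the median was −0.03. Of 11 endothelial markers 1 lay above 0 (median −0.26), and of 8 ependymal markers 1 (median −0.28). Without the 3 libraries the endothelial median was 0.12, with 9 of 11 above 0, and the ependymal median −0.24. Their part in the results was not tested beyond leaving out libraries. Oligodendrocyte markers had a median of −0.10 and 0 of 15 at an unadjusted p under 0.05.

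Glutamate receptor genes had 1 of 34 higher at an unadjusted p under 0.05 and 0 lower, with a median of 0.05. Grin2b, the GluN2B subunit of the NMDA receptor, ran from 950.7 to 2000 in young and from 1166 to 2961 in AI rats, with a log2 difference of 0.30 ± 0.14. It was 0.18 (unadjusted limma p = 0.132) without AI rats R1931 and R9781. AI rats had 0.36 more than AU rats on the log2 scale, with a 95% interval from 0.11 to 0.62, but no gene passed in AI against AU. Grin2b was named for its p in AI against young, which shares the AI libraries, so this interval is not independent evidence. GABA receptor genes had 0 of 14 in either direction and a median of 0.01.

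Calcium handling genes had 1 of 47 higher and 0 lower, with a median of 0.03. Camk2g, the gamma chain of calmodulin-dependent kinase II, had medians of 1516 and 1638 and a log2 difference of 0.21 ± 0.10. Atp2b2, a plasma membrane calcium pump, differed by 0.21 ± 0.12 (unadjusted limma p = 0.0833), and 6 of 12 AI rats were above every young rat. Among 29 immediate early genes only Egr3 was higher at an unadjusted p under 0.05, by 0.41 ± 0.20, and 0 were lower. Junb differed by −0.30 ± 0.18, and 6 of 12 AI rats were below the young range.

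The circadian clock, cholesterol synthesis, chaperone and senescence lists had 0 of 21, 0 of 25, 0 of 30 and 0 of 19 members at an unadjusted p under 0.05, with medians between −0.07 and 0.02. Of 18 glucocorticoid response genes 1 was lower and 0 higher. That was Pdk4, a kinase that restrains pyruvate use, with medians of 109.3 and 69.7 and a log2 difference of −0.64 ± 0.30.

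The respiratory chain list had the most members on the lower side. Of 70 genes tested, 7 were lower at an unadjusted p under 0.05 and 0 higher, where 1.51% of all genes were lower, and 13 of 70 had a value above 0. The median was −0.13, with −0.10 in R9 and −0.13 in R1-R2, and the 7 genes had log2 differences from −0.60 to −0.28.

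Cox5b, a subunit of cytochrome c oxidase, had the second smallest p of all genes. It ran from 510.7 to 1264 in young rats with a median of 851.2. AI rats had 399.9 to 776.1 and a median of 575, and 3 of 12 lay below all young rats. The log2 difference was −0.60 ± 0.13 (unadjusted limma p = 0.000127), −0.54 in R9 and −0.63 in R1-R2.

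Ndufs8, a subunit of complex I, ran from 655.1 to 839.1 in young and from 177 to 982.8 in AI rats, and 9 of 12 AI rats lay below every young rat while 1 lay above. Its log2 difference was −0.43 ± 0.18, and −0.24 without AI rats R1931 and R9781. Ndufv3, also of complex I, differed by −0.31 ± 0.11, and Atp5o, of the ATP synthase stalk, by −0.44 ± 0.16. In AU against young Cox5b differed by −0.31 and Ndufs8 by −0.12. AI minus AU was −0.29 for Cox5b, with a 95% interval from −0.59 to 0.02.

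The other subfields showed respiratory medians of −0.08 in CA1 and 0.07 in DG. The within-rat difference of CA3 minus DG was lower at an unadjusted p under 0.05 for 13 of 70 genes and higher for 0, where 2.53% of all genes were lower. For CA3 minus CA1 it was lower for 1 of 70 and higher for 0, with a median of −0.07, where 1.11% of all genes were lower. For CA3 minus DG (0 of 16371 genes, 0%) and CA3 minus CA1 (0 of 16443 genes, 0%) no gene passed after adjustment.

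**Figure D4:**
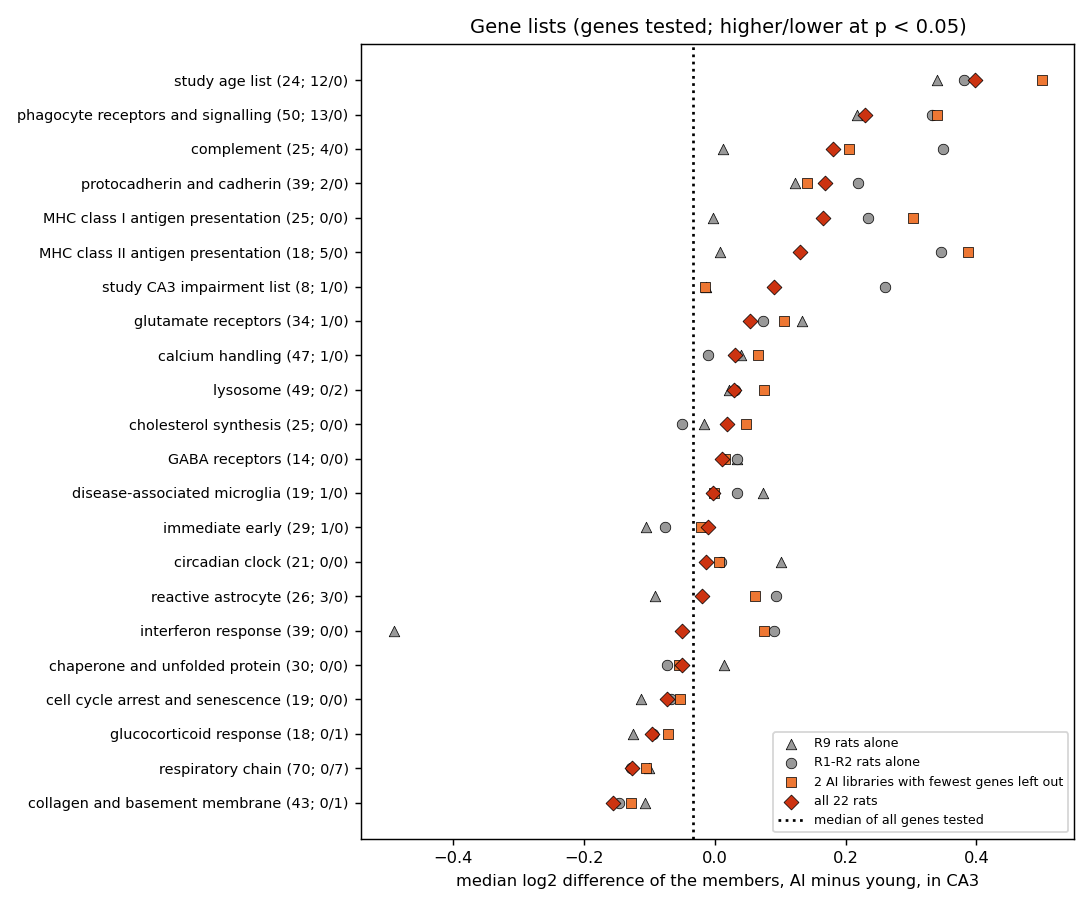
Each row is 1 gene list, with the median log2 difference of its members between AI and young rats in CA3 on the x axis for all 22 rats, each identifier series and the rats without the 2 AI libraries of fewest genes, and with the numbers tested, higher and lower at an unadjusted limma p under 0.05 in the label. The phagocyte list lies at 0.23 and the respiratory chain at −0.13 in all rats, against a median of −0.03 over all genes.

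The study had drawn up a list of 24 genes that were higher in aged rats in each subfield, in part from these libraries. Its direction here, in AU rats, in CA1 and in DG is therefore not independent evidence. All 24 had values above 0, from 0.12 to 1.60, with a median of 0.40. At an unadjusted limma p under 0.05, 12 were higher, where 0.912% of all genes were higher. Beside Cd74, C3, Gfap, Fcgr2b, Cx3cr1, Ncf1, Nckap1l, Itgb2, Pcdhb4 and Slc14a1, described above, Wdfy4, a cross-presentation factor, differed by 0.63 ± 0.30. The AU minus young median was 0.43, that of CA1 was 0.42 and that of DG 0.56.

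Within the list, Cdh1, the epithelial cadherin, was the least settled member. It ran from 5.41 to 577 in young rats, where 577 was rat R9876, and from 0 to 63.9 in AI rats with a median of 47.0 against 14.6. The log2 difference was 0.59 ± 0.68, or 1.11 without rat R9876, whereas edgeR gave −0.79. It was 2.20 in CA1 and 2.68 in DG. Cd4 ran from 68.2 to 225.6 in young and from 0.77 to 591.3 in AI rats, and differed by 0.12, or by 0.85 without AI rats R1931 and R9781.

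**Figure D5:**
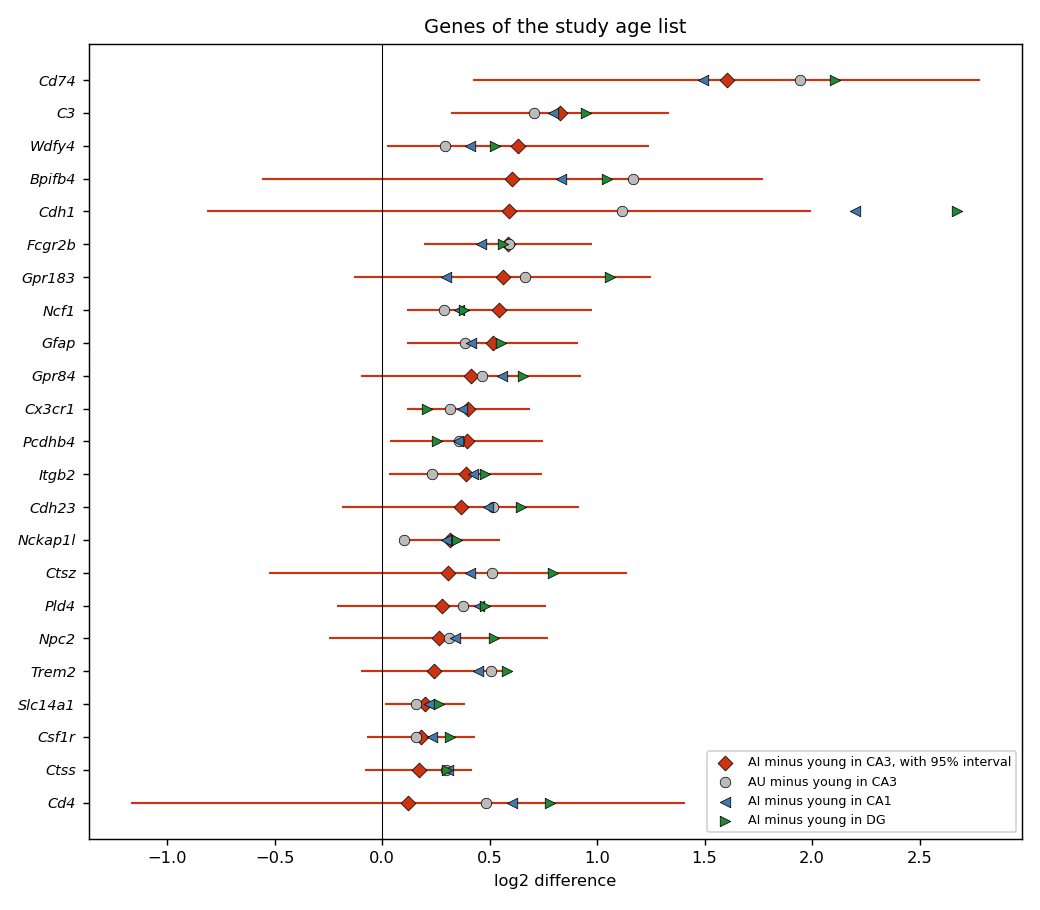
Each row is 1 of 23 plotted genes of the study's age list, with the log2 difference between AI and young rats in CA3 and its 95% interval, beside the AU minus young difference in CA3 and the AI minus young differences in CA1 and DG, which share animals. All plotted CA3 values lie above 0, from 0.12 for Cd4 to 1.60 for Cd74. The study had listed these genes as higher in aged rats, in part from these libraries.

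A second list of the study named 8 genes of CA3 in impaired against unimpaired rats, also chosen in part on these libraries. Against young rats 1 of 8 was higher at an unadjusted p under 0.05 and 0 lower. This was Prl, the pituitary hormone prolactin, at 0 in all 10 young rats and at 0 to 315.3 in AI rats, with 7 of 12 above 0. Since the young libraries were all at 0, the fitted difference of 2.30 is no bound. Prl was highest in AI rat R2233, where Gh1, the growth hormone gene and another pituitary marker, stood at 93.1. The 4 pituitary markers tested had a median of 0.73 and sums of 16.5 to 47.7 in young and 20.7 to 451.7 in AI rats. Prl passed the filter on the mean through its AI values alone, and only 2 of the 4 passed it in AU against young. Neither the Prl call nor this median can therefore serve as evidence of a difference. The part of pituitary RNA was not tested.

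Of the others, Pcdh19 differed by 0.40 ± 0.21, Gabrb1 by 0.30 ± 0.21 and Pcdh17 by 0.17 ± 0.18. Msrb2 differed by −0.21 and Gda, a guanine deaminase, by 0.01. Wnt6 was at 393.4 in young rat R9876 and at most 5.26 in the other young rats. In AI against AU, Pcdh19 differed by 0.67 with a 95% interval from 0.18 to 1.15. The study had chosen the gene on this same contrast, in part in these libraries, so the interval is not independent evidence.

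Slc5a7, Sbspon and Dmrta2, which are in no list, were lower at an unadjusted p under 0.05 and were chosen after their values were seen. Slc5a7, the choline transporter of cholinergic neurons, ran from 4.51 to 24.3 in young and from 0 to 15.1 in AI rats, and 9 of 12 AI rats lay below all young rats. It differed on the log2 scale by −1.99 ± 0.52 (unadjusted limma p = 0.000802). It was 0.30 in CA1, and the CA3 minus CA1 difference was −2.29 (unadjusted limma p = 0.00056), which had the smallest p of that comparison but did not pass. Sbspon, an extracellular matrix gene, differed by −1.80 ± 0.49 and Dmrta2, a developmental transcription factor, by −1.31 ± 0.40. Of the 248 genes lower at an unadjusted p under 0.05, 98 were at 0 in AI rat R1931 or R9781 (39.5%, against 14.0% of all genes tested), and of the 150 higher genes 3 were.

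No marker of a neuron type passed the adjusted test. The CA3 pyramidal markers had 7 of 11 values above 0 and a median of 0.19, and the dentate granule markers 5 of 7 and 0.18. Interneuron markers had 2 of 15 values above 0 and a median of −0.12. Their median was −0.29 in R9, with 0 of 15 above 0, and 0.01 in R1-R2, with 8 of 15. Among them Cck, a neuropeptide of basket cells, had medians of 1911 and 1453 and a log2 difference of −0.36 ± 0.15. Of 8 markers of newborn neurons and proliferation, Sox11 and Igfbpl1 were lower at an unadjusted p under 0.05, by −0.98 ± 0.45 and −1.15 ± 0.53, and both had AI values of 0. Neither was below p = 0.05 in limma without R1931 and R9781 (−0.54 and −0.56). The medians were −0.20 for CA1 pyramidal, −0.07 for CA2 pyramidal, 0.07 for thalamic and 0.21 for cortical neuron markers. The CA1 pyramidal median was −0.75 in R9, with 1 of 7 above 0, and 0.64 in R1-R2, with 7 of 7, and the dentate granule median 0.77 in R9 and −0.13 in R1-R2. They were 0.01 for oligodendrocyte precursor, −0.09 for mural and 0.38 for blood markers.

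Leaving out the AI libraries of rats R1931 and R9781 did not bring any gene past the threshold in limma (smallest adjusted p = 0.27), but the balance of the unadjusted calls changed. There were then 314 genes higher (1.91%) and 304 lower (1.85%) at an unadjusted p under 0.05, and 233 of the 398 genes of the full comparison were among them in the same direction. The age list had 19 of 24 members higher, the phagocyte list 22 of 50 and the class II list 6 of 18, each with 0 lower. The respiratory chain had 10 of 70 lower and 0 higher. With the 14 libraries whose CA3 score was highest, which include R1931, R9781 and R9876, the phagocyte list had 5 of 50 higher and the class II list 4 of 17, where 0.522% of all genes were higher. The respiratory chain had 3 of 70 lower, where 1.21% of all genes were.

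The direct comparison of the aged groups in CA3 had no gene past the threshold (0 of 16436, 0%), nor had AU against young (0 of 16493, 0%). AI minus AU was 0.76 for Ncf4, with a 95% interval from 0.12 to 1.4, and −1.77 for Slc5a7, with an interval from −2.88 to −0.67. Both genes were named for a small p in AI against young, which shares these AI libraries. The unadjusted intervals are therefore not independent evidence, and Slc5a7 had low counts. The 24 age list genes had a median of −0.03 between AI and AU, and the respiratory chain had a median of −0.11. At an unadjusted limma p under 0.05 there were 0 of 24 and 0 of 70, where 1.61% of all genes were. Both counts lie near that share and do not show that the aged groups are alike.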

How the data were processed

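The study isolated poly-A RNA from hippocampal subfields and sequenced it on the Ion Proton. According to its methods, reads were aligned to the rat genome rn5 with TopHat2 and Bowtie2, counted per gene with featureCounts 1.4.4 and normalized with DESeq2 1.10.1. STAR 2.5, cutadapt 1.8.3 and bcl2fastq 2.17, also in the submitters' processing notes, served a separate Illumina data set not used here. The deposited values are normalized counts, a signal per gene with no log transform, 1 column per library (26689 genes, 102 libraries). Dividing by the value of 1 read recovered whole reads for 100% of values (tolerance 0.1 read).

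Here limma 3.58.1 with a trended prior in R 4.3.3 was fitted to log2(normalized count + 1) after dropping genes whose mean over the fitted libraries was below 5, so fold differences understate the change of low genes. Tests were two-sided with Benjamini-Hochberg adjustment over all genes and a threshold of 0.05. Subfield differences were fitted within rats, since a rat number marks 1 animal, although deviations of its libraries correlated weakly (mean r 0.0553 with CA1, 0.0362 with DG). edgeR 4.0.16 and DESeq2 1.42.0 were run on the recovered reads. Scripts were tested on simulated data.

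Genes named were up to 4 members with the smallest p of each of 22 gene lists, the members of the 2 study lists, and genes said to be chosen after their values were seen. Members, lists and 21 marker lists were chosen with earlier results of these data known. Alternatives included other pseudocounts (0.5, 5), a minimum mean of 20, no filter, TMM, identifier series, library subsets and leaving out each library. Of the gene rows, 4719 had no symbol and were named by identifier. Some genes that this rule selects are not reported here by name, although they remain in the counts. The replicates are separate rats.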

Additional observations from a re-analysis of the deposited data

Results flagged for a closer look

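By Dixon's test on log2 values, 2 young CA3 libraries lay far from the others of their group, in 9 of 75 items tested. Chance gives about 1 in 20 for a single item, but these items are not independent. Most came from rat R9876, and Col3a1 is part of the meningeal sum, so the count cannot be set against that rate. Rat R9876 lay far from the others in 6 of the named genes and 2 marker sums. Its normalized count of Col3a1 was 2899 against at most 68.9 in the other young rats. It had 459 of the first C4a row (others at most 141.1), 295.1 of Fbln5 (at most 56.9) and 489.1 of Lama1, a basement membrane laminin (at most 89.4). It had 577 of Cdh1 (at most 57.5) and 393.4 of Wnt6 (at most 5.26). Its summed meningeal fibroblast markers were 26510 (others at most 1330) and its summed perivascular macrophage markers 1806 (others at most 218.4).

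Rat R9879 had the lowest sum of CA3 pyramidal markers, 6382, where the other young rats had at least 12550.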

How the results depend on the processing

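In AI against young in CA3, limma called 0 genes under each alternative and with each library left out (range 0 to 0), as did edgeR, and DESeq2 called 1 (AABR07006310.1), also 1 without AI rats R1931 and R9781, an alternative chosen after seeing the data. The 398 genes at an unadjusted p under 0.05 became 192 in the R1-R2 rats alone, 725 with no filter on low values, 308 to 603 with each library left out (603 without young rat R2175), and 618, 822 and 849 in limma, edgeR and DESeq2 without rats R1931 and R9781. In AI against AU the 264 such genes became 118 in R1-R2 and 448 in R9 alone. AU against young gave 1 adjusted call with DESeq2 and 1 in R1-R2 alone, and its 288 unadjusted genes became 604 in R9. For CA3 minus DG the 690 unadjusted genes, from the fit pairing the libraries of a rat as a replicate block, became 444 with no replicate block and 427 without rats R1931 and R9781. The pairing changed no adjusted call. The causes were not tested.

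Directions reversed for 6 named genes, none of them below an unadjusted p of 0.05 in limma in the full comparison. Gda (0.01) was −0.22 in R9, −0.22, −0.28 and −0.28 (limma, edgeR, DESeq2) without rats R1931 and R9781, −0.19 with young R9876 also left out, and −0.18 to 0.087 with each library left out. Cdh1 was −1.12 in R9, −0.79 with edgeR and −0.72 with edgeR without rats R1931 and R9781. Cd4 was −0.038 with the CA3 score highest and −0.075 to 0.69 with each library left out. In R9 alone, Bpifb4 was −0.31, Msrb2 0.18 and Pcdh17 −0.024.

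With 12 against 10 libraries the typical 95% half-width of 0.43 on the log2 scale limits what can be seen. The R9 libraries carry markers of other subfields, no label gives the cause, and the series and the tissue taken cannot be told apart.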
